A study of Rattus with 6 samples.

Results

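The genes described here are 5 markers of vessel and immune cells, measured in RNA from isolated rat ventricular cardiomyocytes. They are Vwf (ENSRNOG00000019689) and Kdr (ENSRNOG00000046829) for endothelial cells, and Ptprc (ENSRNOG00000000655), Cd68 (ENSRNOG00000037563) and Cd74 (ENSRNOG00000018735) for leukocytes. They were selected by identifier, 5 of the 23092 genes listed in each library, and each of the 5 had enough reads to be tested. The count files list identifiers only, so the pairing of names with identifiers was taken as given and could not be checked here. All 6 libraries came from wild-type male Wistar rats aged 8 weeks. The 3 hypergravity libraries came from rats exposed to 4 g for 14 days, 8 h per day. The 3 control libraries came from rats without hypergravity, and whether these were handled alongside a centrifuge is not stated in the labels. The labels do not say that each library is a separate rat, so p-values measure the spread between these libraries, which may be technical. The comparison asks how much vessel and immune cell RNA the cardiomyocyte preparations held, and whether that amount differed after hypergravity.

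The ventricle holds cardiomyocytes, the contracting muscle cells, within a dense bed of capillaries, and resident macrophages lie between the muscle fibres. Vwf encodes von Willebrand factor, the clotting glycoprotein that endothelial cells store and secrete, and Kdr encodes VEGF receptor 2, through which endothelial cells respond to vascular endothelial growth factor. Ptprc encodes CD45, a tyrosine phosphatase on the surface of nucleated blood cells, and Cd68 encodes a lysosomal glycoprotein abundant in macrophages. Cd74 encodes the invariant chain, which escorts MHC class II molecules in antigen-presenting cells, and other cells, endothelial cells among them, can also express it. In bulk RNA, fewer cells of a type and less RNA per cell cannot be told apart.

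The control libraries held 25151759 to 33700736 counts on genes and the hypergravity libraries 24440690 to 45497422. The 10 most abundant genes took 60.5 to 72.7% of the counts in the control libraries and 52.5 to 73.4% in the hypergravity libraries. Levels are therefore given as CPM, each count relative to a common library size, after scaling by the trimmed mean of M values (TMM), which sets the typical gene equal between libraries. The TMM factors ran from 0.774 to 1.16 in the control group and from 0.805 to 1.52 after hypergravity. Alignments outside annotated exons made up 2.85 to 3.20% in the control libraries and 4.07 to 4.40% in the hypergravity libraries, and the ranges did not overlap. The cardiomyocyte identity of the preparations was not checked against muscle genes, because the identifiers of those genes are not paired with names in the sources used here.

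RNA of both endothelial markers was present in each library, and neither marker differed between the groups beyond the spread between libraries. The spread itself was wide: within the control group Vwf varied 5.03-fold and Kdr 2.85-fold. Control library 2 and hypergravity library 1 gave the lowest values of both genes, the receptor and the secreted glycoprotein.

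Vwf had 294, 134 and 1149 reads in control libraries 1, 2 and 3, which is 14.5, 5.87 and 29.5 CPM after TMM scaling. In hypergravity libraries 1, 2 and 3 it had 230, 1011 and 334 reads, or 5.18, 14.6 and 17.0 CPM. The highest value and the second lowest were both in the control group, and the groups overlapped from 5.87 to 17.0 CPM. The mean was 12.3 ± 6.24 CPM (SD, n = 3) after hypergravity and 16.6 ± 12.0 CPM (SD, n = 3) in control libraries. The fitted log2 difference, hypergravity minus control, was -0.46 (standard error, SE, 0.58, 95% interval -1.79 to 0.88, adjusted p = 0.767 by the edgeR quasi-likelihood test). The interval covers levels from 0.288 to 1.84 times the control level. Control library 3 set the direction, since without it the log2 fold change was 0.26.

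Kdr had 429, 169 and 679 reads in control libraries 1, 2 and 3, equal to 21.1, 7.41 and 17.5 CPM. In hypergravity libraries 1, 2 and 3 the receptor had 512, 921 and 365 reads, equal to 11.5, 13.3 and 18.6 CPM. All 3 hypergravity values lay between the lowest and the highest control value. The mean was 14.5 ± 3.65 CPM (SD, n = 3) after hypergravity and 15.3 ± 7.09 CPM (SD, n = 3) in control libraries. The fitted log2 difference, hypergravity minus control, was -0.09 (SE 0.36, 95% interval -0.91 to 0.73, adjusted p = 0.933 by the edgeR quasi-likelihood test). A fall to under 0.534 times or a rise to over 1.65 times the control level lies outside this interval, and a smaller change in either direction could not be resolved. With no scaling beyond library size the Kdr value was 0.17, against a median of 0.32 over all genes tested under that scaling, so that relative to the median Kdr lay at -0.15, beside -0.07 with TMM.

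**Figure D1:**
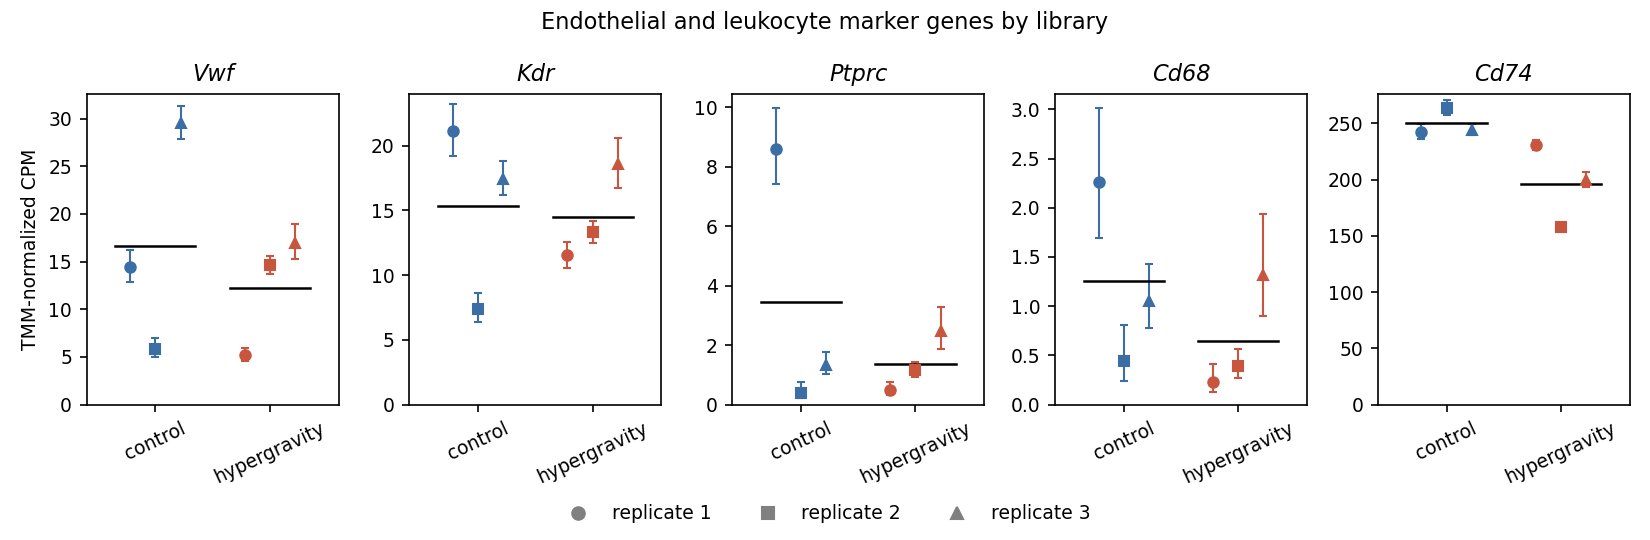
TMM-normalized CPM (vertical axis, from 0, a separate scale for each gene) of Vwf, Kdr, Ptprc, Cd68 and Cd74 in the 3 control and the 3 hypergravity libraries. Symbols mark the replicate, error bars are 95% Wilson intervals of the counts (counting error only) and the black line is the group mean; the groups overlap for 4 genes, and for Cd74 the control libraries (243 to 264 CPM) lie above the hypergravity libraries (158 to 231 CPM).

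Ptprc and Cd68, the general leukocyte marker and the macrophage marker, were found at few reads in each library, and neither differed between the groups beyond the spread between libraries. Both were highest in control library 1, which alone held most of the Ptprc reads of the control group. Their fitted values lay below 0 by more than those of the endothelial markers, and their intervals were also wider.

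Ptprc had 175, 9 and 52 reads in control libraries 1, 2 and 3, equal to 8.61, 0.394 and 1.34 CPM. In hypergravity libraries 1, 2 and 3 it had 22, 80 and 49 reads, equal to 0.496, 1.16 and 2.49 CPM. Control library 1 stood above the 5 others, and its 95% counting interval (7.42 to 9.98 CPM) overlapped none of theirs. The mean was 1.38 ± 1.02 CPM (SD, n = 3) after hypergravity and 3.45 ± 4.49 CPM (SD, n = 3) in control libraries. The fitted log2 difference, hypergravity minus control, was -1.36 (SE 1.00, 95% interval -3.64 to 0.93, adjusted p = 0.576 by the edgeR quasi-likelihood test). Without control library 1 the log2 fold change was 0.60, the opposite sign, with an adjusted p of 0.825 from the same edgeR test. It was -0.64 with limma-voom and -0.39 with the replicate number as a block. The interval of the full comparison reaches from 0.0802 to 1.91 times the control level, so these libraries set only loose limits on a change of CD45 RNA.

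Cd68 had 46, 10 and 41 reads in control libraries 1, 2 and 3, equal to 2.26, 0.438 and 1.05 CPM. In hypergravity libraries 1, 2 and 3 it had 10, 27 and 26 reads, equal to 0.225, 0.390 and 1.32 CPM. Hypergravity libraries 1 and 2 were below each control library, while hypergravity library 3 was above control libraries 2 and 3. The mean was 0.646 ± 0.591 CPM (SD, n = 3) after hypergravity and 1.25 ± 0.928 CPM (SD, n = 3) in control libraries. The fitted log2 difference, hypergravity minus control, was -1.04 (SE 0.78, 95% interval -2.82 to 0.75, adjusted p = 0.583 by the edgeR quasi-likelihood test). The value was -0.32 without control library 1 and -1.98 without hypergravity library 3. The reads were few enough for counting error to matter: the interval of the 10 reads in control library 2 was 0.238 to 0.807 CPM, overlapping that of hypergravity library 2 (0.268 to 0.568 CPM).

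Cd74, the MHC class II invariant chain, had the narrowest spread between libraries of the 5 genes. It had 3934 reads or more in each library, the control libraries lay close together, and each hypergravity library was below each of them after TMM scaling. The difference was nevertheless not called by the test.

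Cd74 had 4933, 6025 and 9516 reads in control libraries 1, 2 and 3, equal to 243, 264 and 245 CPM. In hypergravity libraries 1, 2 and 3 it had 10254, 10910 and 3934 reads, equal to 231, 158 and 200.0 CPM. The narrowest gap between the groups was that between control library 1 and hypergravity library 1, whose counting intervals (235.9 to 249.5 CPM and 226.6 to 235.6 CPM) nearly touched. The mean was 196 ± 36.8 CPM (SD, n = 3) after hypergravity and 250.4 ± 11.9 CPM (SD, n = 3) in control libraries. The fitted log2 difference, hypergravity minus control, was -0.35 (SE 0.19, 95% interval -0.79 to 0.08, adjusted p = 0.445 by the edgeR quasi-likelihood test). Groups that do not overlap were common in the whole table: 10.5% of the 11905 genes tested had all hypergravity libraries below all control libraries, and 21.8% were apart in either direction. The absence of overlap for Cd74 is 1 gene among these.

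Whether the Cd74 groups overlapped depended on the scaling. Relative to library size alone, Cd74 was at 196, 204 and 282 CPM in control libraries 1, 2 and 3 and at 261, 240 and 161 CPM in hypergravity libraries 1, 2 and 3, so that the groups overlapped, where 1.92% of all genes tested had their hypergravity libraries lower without overlap on that scale. The log2 fold change was then -0.05, while the median of all genes tested moved from -0.02 with TMM to 0.32. Relative to that median, Cd74 lay at -0.33 with TMM and at -0.36 with library size alone. The share of alignments outside exons was also apart between the groups, and its part in the Cd74 values was not tested.

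**Figure D2:**
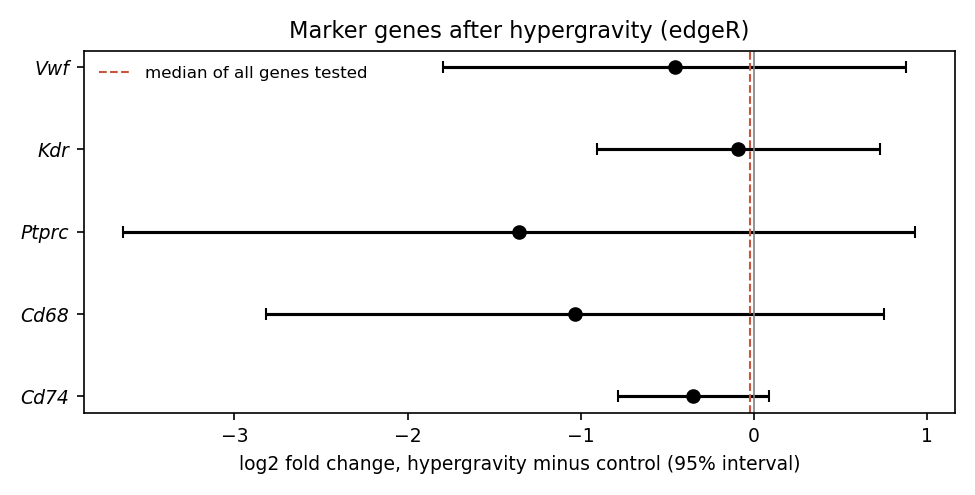
Log2 fold change of each marker gene, hypergravity minus control (horizontal axis), from edgeR; points are estimates and bars 95% intervals, with 3 libraries in each group. The dashed line is the median of the 11905 genes tested (-0.02); the 5 points lie between -1.36 and -0.09, each interval includes 0, and the Ptprc interval is the widest.

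Of the 5 marker genes, 0 passed an adjusted p of 0.05 in edgeR, where 0.0336% of all genes tested did, 4 in number and each of them lower after hypergravity. At an unadjusted p under 0.05, edgeR gave 0 of the 5 genes, beside 13.6% of all genes tested. DESeq2 and limma-voom also called 0 of the 5 after adjustment, where DESeq2 called 2.74% and limma-voom 0.0336% of all genes tested. At an unadjusted p under 0.05, DESeq2 gave 1 (Cd74, unadjusted p = 0.0477 from DESeq2, adjusted p = 0.339), beside 13.4% of all genes tested, and limma-voom gave 0, beside 14.2%. All 5 fitted values were below 0 (median -0.46), although Kdr was above 0 with library size alone, where the median of all genes was 0.32. Of all genes tested, 52.3% were below 0, with a median of -0.02. The 5 genes share the same 6 libraries, so their common sign is not 5 separate observations.

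The spread between libraries of one group differed among these marker genes. Within the control group the highest Ptprc level was 21.8 times the lowest, and 99.4% of the genes tested had a smaller ratio. The ratio was 5.16 for Cd68 (94.2% of genes smaller), 5.03 for Vwf (93.9%) and 2.85 for Kdr (88.5%), while the median gene had a ratio of 1.36. Cd74 was at the other end, with a ratio of 1.09 in the control group and 6.10% of genes smaller. Ptprc and Cd68 had fewer reads than the endothelial markers in each library, and the part of counting error in these ratios was not tested. For Ptprc, the counting intervals of control library 1 (7.42 to 9.98 CPM) and control library 2 (0.208 to 0.750 CPM) were apart.

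Within the hypergravity group the ratio was 5.87 for Cd68, 5.03 for Ptprc, 3.28 for Vwf, 1.61 for Kdr and 1.47 for Cd74, beside 1.44 for the median gene. Kdr and Cd74 were thus near the middle of all genes in this group, with 64.3% and 52.1% of genes smaller. The 95% counting intervals were apart in 6 of the 6 pairs of libraries of the same group for Ptprc, in 5 each for Vwf, Kdr and Cd74, and in 4 for Cd68. This share was not computed over all genes.

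The order of the libraries was partly shared between the genes. After TMM scaling, Kdr and Ptprc placed the 6 libraries in the same order, from control library 2 as the lowest through hypergravity libraries 1 and 2, control library 3 and hypergravity library 3 to control library 1 as the highest. With library size alone the orders of these genes differed, with hypergravity library 2 the highest for Kdr and control library 1 the highest for Ptprc. Vwf had another order, with control library 3 the highest and control library 1 the third lowest after TMM scaling. Some neighbours in the shared order were not apart beyond counting error, such as hypergravity libraries 1 and 2 for Kdr and control library 2 and hypergravity library 1 for Ptprc. Control library 2 and hypergravity library 1 were the lowest pair for Vwf, Kdr and Ptprc both with TMM and with library size alone. For Cd68 they were the lowest pair with library size alone, and with TMM hypergravity libraries 1 and 2 were.

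Relative to each gene's own mean over the 6 libraries, control library 2 lay at -1.05 for Vwf, -0.93 for Kdr, -1.79 for Ptprc and -0.68 for Cd68 on the log2 scale. Hypergravity library 1 lay at -1.23, -0.29, -1.46 and -1.64 for the same genes. Hypergravity library 3 was above the mean for each of the 4, by 0.48, 0.40, 0.87 and 0.91. The low end therefore held a control library and a hypergravity library for Vwf, Kdr and Ptprc, whereas for Cd68 hypergravity library 2, at -0.85, was also below control library 2. Control library 2, low for the other genes, had the highest Cd74 level after TMM scaling, at 0.26 above its mean. Hypergravity library 2, which was in the middle for Vwf and Kdr, had the lowest, at -0.48. With library size alone, Cd74 was instead highest in control library 3 and lowest in hypergravity library 3, and control library 2 was the third lowest.

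**Figure D3:**
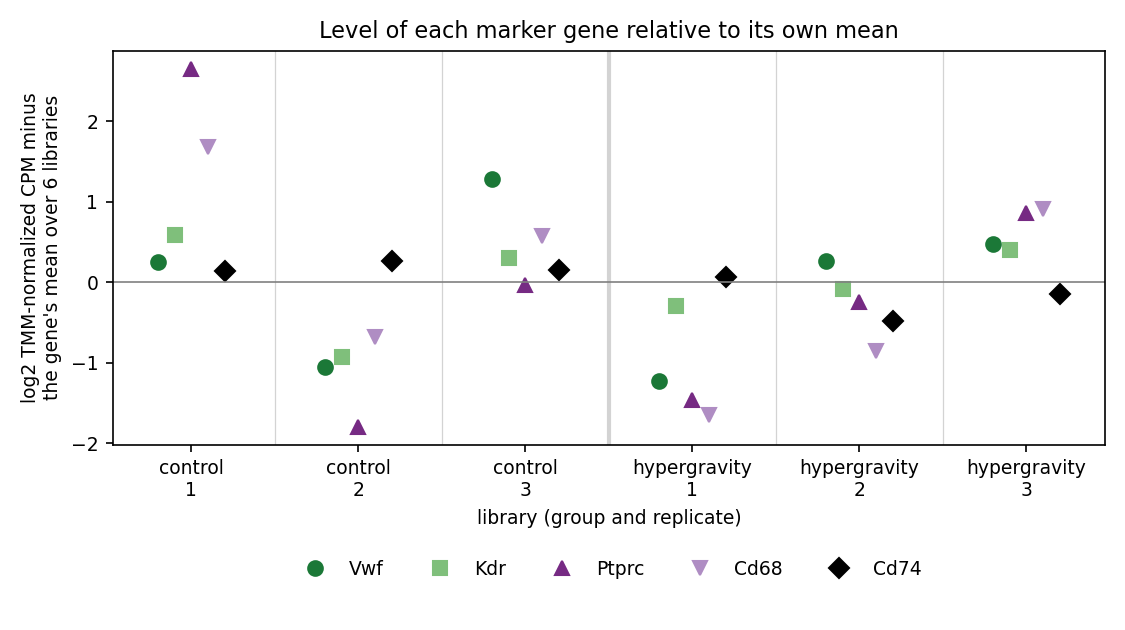
Log2 TMM-normalized CPM of each marker gene minus that gene's mean over the 6 libraries (vertical axis), for each control and hypergravity library (horizontal axis). In control library 2 and hypergravity library 1, Vwf, Kdr, Ptprc and Cd68 lie below 0 (from -1.79 to -0.29) and Cd74 above it (0.26 and 0.07).

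Summed over both endothelial markers, the level was 13.3 to 47.0 CPM in the control libraries and 16.7 to 35.5 CPM in the hypergravity libraries. Ptprc and Cd68 together came to 0.833 to 10.9 CPM and to 0.721 to 3.81 CPM, respectively. Both sums overlapped between the groups. Cd74 supplied 95.7 to 99.7% of the reads on the 3 leukocyte genes, so a sum over all 3 would reflect Cd74. The Cd74 level did not follow that of Ptprc between libraries, and which cells the Cd74 reads came from was not tested. Transcript lengths were not used here, and these shares are of reads, not of transcripts.

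Ratios of reads between marker genes within a library need no scaling between libraries. Vwf to Kdr was 0.685, 0.793 and 1.69 in control libraries 1, 2 and 3 and 0.449, 1.10 and 0.915 in hypergravity libraries 1, 2 and 3. The pair of endothelial genes therefore did not keep a fixed ratio, and the exact 95% intervals of the extremes, 1.54 to 1.86 in control library 3 and 0.383 to 0.526 in hypergravity library 1, were apart. Neither group was consistently higher in this ratio.

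Ptprc to Kdr, leukocyte relative to endothelial reads, was 0.408, 0.0533 and 0.0766 in control libraries 1, 2 and 3. It was 0.0430, 0.0869 and 0.134 in hypergravity libraries 1, 2 and 3. Control library 1 thus had the most CD45 reads relative to the endothelial receptor as well as the highest CPM. Cd68 to Ptprc ran from 0.263 in that library to 1.11 in control library 2, and from 0.338 to 0.531 after hypergravity. The interval of the ratio in control library 2 (0.406 to 3.09), which rests on 10 and 9 reads, overlapped those of the 3 hypergravity libraries.

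Cd74 to Ptprc spanned the widest range of the 6 ratios computed, from 28.2 in control library 1 to 669 in control library 2. In hypergravity libraries 1, 2 and 3 it was 466, 136 and 80.3. Cd74 to Kdr was 35.7 in control library 2 and 20.0 in hypergravity library 1, and from 10.8 to 14.0 in the other 4 libraries. Cd74 to Cd68 was 603 and 1025 in that pair of libraries and from 107 to 404 in the others. Control library 2 and hypergravity library 1 were thus the highest pair in each of the 3 ratios with Cd74, 1 library from either group.

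**Figure D4:**
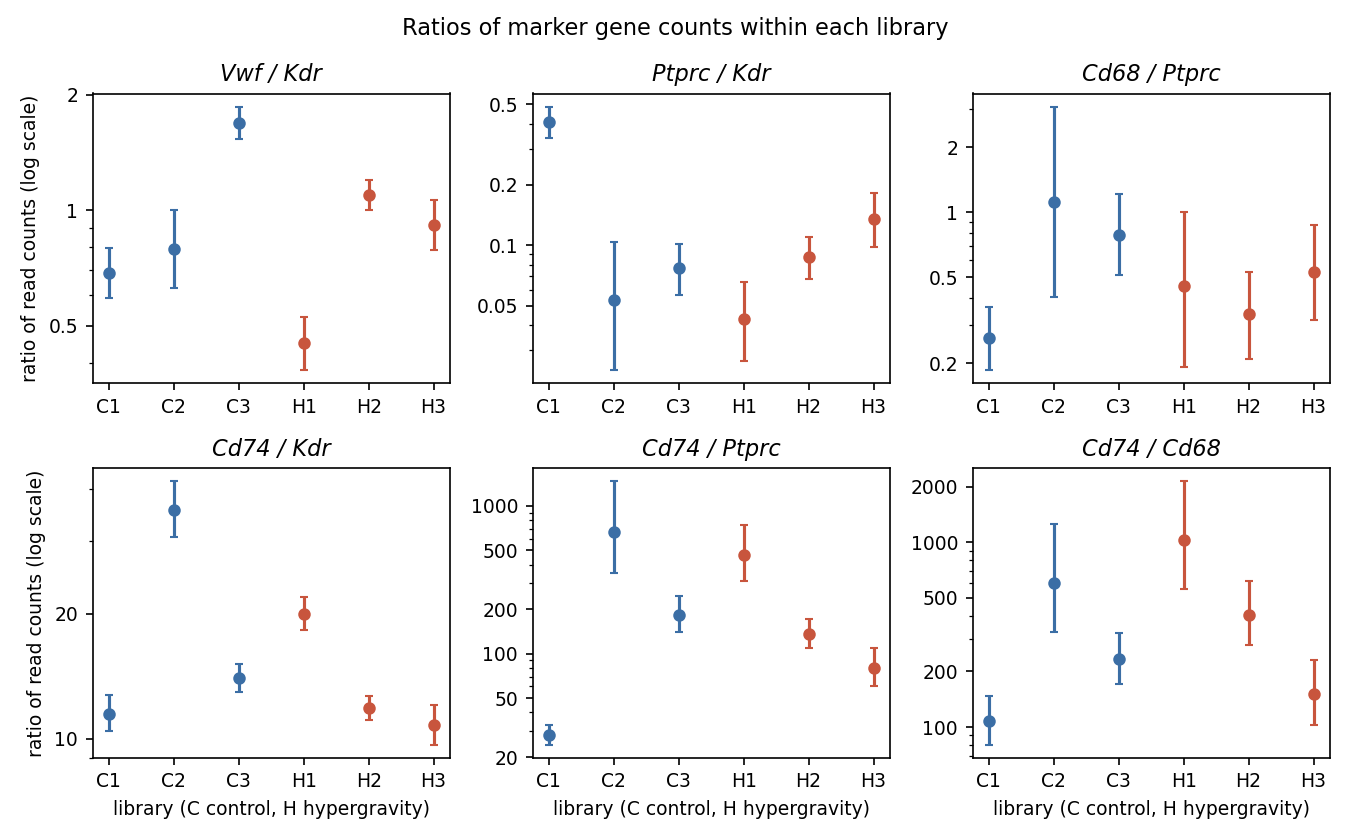
Ratios of read counts between marker genes (vertical axes, log scale) in control libraries 1 to 3 (C1 to C3) and hypergravity libraries 1 to 3 (H1 to H3), with exact 95% intervals for counting error. The 3 ratios with Cd74 on top are high in C2 and H1 (35.7 and 20.0 for Cd74 to Kdr), and in each of the 6 panels the values of the groups overlap.

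Among the 11904 other genes tested, 456 had a Pearson correlation over 0.9 with Kdr over the 6 libraries on the log2 CPM scale, 122 with Vwf, 308 with Ptprc, 385 with Cd68 and 465 with Cd74. Such counts were not computed for other genes, so whether these are large is not known. The gene that followed Kdr most closely was ENSRNOG00000002969, with a correlation of 0.9997 over 6 libraries. Its level was 7.97, 0.833 and 5.17 CPM in control libraries 1, 2 and 3 and 2.23, 3.08 and 6.20 CPM in hypergravity libraries 1, 2 and 3. It placed the libraries in the order of Kdr over a wider range. For Cd74 the closest gene was ENSRNOG00000016478 (correlation 0.991 over 6 libraries), at 121, 129 and 120 CPM in the control libraries and 121, 88.2 and 103 CPM in the hypergravity libraries. That gene did not fully keep the order of Cd74 (Spearman correlation 0.829 over 6 libraries). These identifiers have no name in the sources used here. The correlations are descriptions of genes picked as the highest of 11904 over 6 points that share library and depth, and Kdr and Cd74 were chosen for printing after the values were seen.

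**Figure D5:**
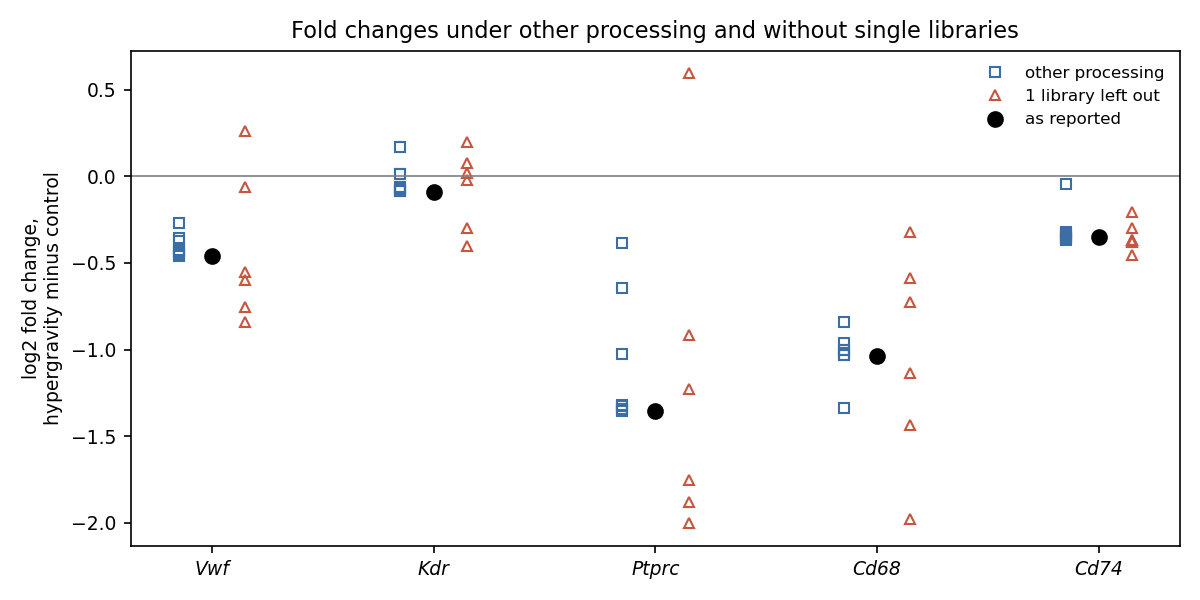
Log2 fold change of each marker gene, hypergravity minus control (vertical axis), as reported (black circles), under other scaling, filters, tests or the replicate block (blue squares), and with 1 library left out (red triangles). Cd68 and Cd74 stay below 0 throughout (from -1.98 to -0.32 and from -0.46 to -0.05), whereas Kdr lies on both sides of 0 and single left-out libraries turn Vwf (0.26) and Ptprc (0.60).

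The plot of fold changes under other processing shows how single libraries moved the values. Leaving out control library 1 moved Ptprc from -1.36 to 0.60 and Cd68 from -1.04 to -0.32, and leaving out control library 3 moved Vwf from -0.46 to 0.26. Leaving out hypergravity library 3 moved Cd68 to -1.98 and Ptprc to -2.00. Without control library 2, a library low in these markers, Vwf was at -0.84, Kdr at -0.40, Ptprc at -1.88 and Cd68 at -1.44. Their adjusted p-values in that edgeR fit were 0.538, 0.537, 0.425 and 0.491. Without hypergravity library 1, also low in these markers, the values moved the other way, to -0.06, 0.08, -0.92 and -0.59. Cd74 moved least on the log2 scale, from -0.46 without hypergravity library 1 to -0.21 without hypergravity library 2. None of the 5 genes passed the adjusted threshold in any of the 14 alternatives in which it was tested, Cd68 in 13 of them because a minimum of 1 CPM removed it.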

How the data were processed

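RNA of isolated ventricular cardiomyocytes was enriched for poly(A) and sequenced in 6 libraries (3 control, 3 hypergravity). Per the labels, the authors processed reads with FastQC, Trimmomatic, HISAT2 and HTSeq on the genome build mRatBN7.2 and deposited raw counts for 23092 genes in each library, without normalization. Tool versions, the annotation and whether counting used strand are not given in the sources used here, so reads of overlapping genes may not be told apart. The 5 HTSeq summary categories (8.55 to 9.92% of listed alignments) were left out of library sizes and tests.

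The groups were compared by edgeR (version 4.0.16, in R 4.3.3) with TMM scaling and the filterByExpr filter, which left 11905 genes. P-values of the quasi-likelihood test were adjusted over all of these (Benjamini-Hochberg, threshold 0.05). Each standard error is the fitted difference over the square root of its F value. The procedure was tested on simulated counts. Alternatives were DESeq2 (version 1.42.0), limma-voom (version 3.58.1), other scalings and filters, the replicate number as a block, and each library left out. Correlations used log2 CPM with a prior count of 2. Counting intervals cover counting error only: Wilson for levels, exact binomial for ratios.

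The genes and lists were chosen with earlier results of these data known. The genes to be named were the 5 markers, wider marker lists (endothelial, leukocyte, macrophage, MHC class II, lymphoid, neutrophil, mural, fibroblast, cardiomyocyte and red cell) and the closest gene to each marker. The reference table at hand (GRCr8) paired 0 Ensembl rat identifiers with symbols, so the wider lists, sequences and positions were not analysed here. The paper linked to these data describes another exposure, and was not used for the processing.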

Additional observations from a re-analysis of the deposited data

How the results depend on the processing

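The adjusted p-value of each of the 5 genes stayed above 0.05 in each alternative. Cd68 and Cd74 kept their direction in all 13 and all 14 alternatives. The Kdr value changed sign with limma-voom (0.013) and the replicate block (0.016). With no scaling beyond library size it was 0.17, below the median of all genes there (0.32), as it was with TMM. It ran from -0.40 to 0.20 with 1 library left out. Ptprc was -0.64 with limma-voom and -0.39 with the replicate block. With 1 library left out, Vwf ran from -0.84 to 0.26 and Ptprc from -2.00 to 0.60, positive without control library 3 and control library 1, respectively. The cause was not tested beyond the library left out. Over all genes, 4 were lower and 0 higher after hypergravity. DESeq2 gave 151 lower and 175 higher, no filter on low counts 11 lower and 4 higher, and no scaling beyond library size 1 lower. Without the 10 most abundant genes 0 were lower, with the replicate block 0, and with 1 library left out 0 to 1 (0 without control library 2, hypergravity library 2 or hypergravity library 3). In these last fits, 376 to 1054 genes were lower at an unadjusted p under 0.05 (640 without the abundant genes, 397 with the block) and 568 to 1027 higher. The cause was not tested. Samples with the same replicate number did not consistently deviate together (correlations across genes of -0.47, -0.11 and 0.21). Deviations were taken from each group's mean of 3 libraries, so these correlations are not independent and cannot exclude a shared batch. The highest correlations were between control library 2 and hypergravity library 1 (0.63) and between control library 1 and hypergravity library 3 (0.38), and the numbers were taken as names only. Ptprc and Cd68 had the fewest reads, with 9 and 10 in their poorest library, and Ptprc also varied between libraries beyond counting error. A count of 0 would allow up to 0.123 CPM in the smallest library, relative to library size alone.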
